A study of Mus musculus with 6 samples.

Results

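The 10 genes described here are the core of Notch signalling as it works in the gut lining, namely the receptors Notch1, Notch2, Notch3 and Notch4, the ligands Dll1, Dll4, Jag1 and Jag2, the target Hes1 and the fate factor Atoh1. They were picked by gene symbol from a table of 18159 genes, and all 10 were found and had enough reads to be tested. The table holds 6 RNA libraries of mouse intestinal epithelial cells, 3 from Git2-knockout mice and 3 from wild-type mice. The series text describes them as enteroids, epithelial organoids grown in culture, of mice aged 12 days, while the sample titles name only epithelial cells. The titles name a Git2-knockout, whereas the genotype entry for those libraries reads knockdown. Git2 encodes a scaffold protein that acts on Arf GTPases. The allele is not described in the labels, which list no further allele or agent for either group. No label ties the replicates of a group to different animals or cultures. The p-values therefore cover only the spread among these libraries, which may be technical.

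Notch signalling passes between touching cells. A ligand on one cell pulls on a receptor on its neighbour, proteases cut the receptor, and its freed inner part enters the nucleus, where it joins the DNA-binding protein RBPJ and turns on genes such as Hes1. In the intestinal crypt the HES1 protein represses Atoh1, the factor that commits a progenitor to the secretory lineages (goblet, Paneth and enteroendocrine cells). Cells with Atoh1 make the ligands Dll1 and Dll4 and so keep their neighbours absorptive, a process known as lateral inhibition. Outside the epithelium, Notch4 and Dll4 are known from blood vessel endothelium and Notch3 from pericytes and smooth muscle.

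Libraries held 16284400 to 16837200 estimated reads in the Git2-knockout group and 18753600 to 19106600 in the wild-type group. Git2 itself averaged 16.6 ± 0.98 CPM (reads per 1000000, scaled by TMM) in Git2-knockout and 22.9 ± 0.76 CPM in wild-type (SD, n = 3 each) (log2 fold change -0.47, SE 0.07, edgeR adjusted p = 4.44e-05). Its transcript was thus lower but still at 72.3% of wild-type, with a 95% interval of 65.0% to 80.4%. Markers of epithelium summed to 10561 to 10665 TPM (transcripts per 1000000, corrected for length) in Git2-knockout and 10777 to 11157 TPM in wild-type, with all 10 of them above 1 TPM. Of the 10, 7 fell and 0 rose, among them Cdx1 (-0.72), Krt19 (-0.65) and Elf3 (-0.39). The other 3 did not pass the test, among them Epcam (0.01), the most abundant. The list median was -0.19, and -0.02 once trends with transcript length and GC content were removed as described below. Git2-knockout replicate 1 stood apart from its group. Chi-square per degree of freedom between libraries was 7.16 and 5.31 for its pairs with Git2-knockout replicates 2 and 3, against 1.96 between those and 1.598 to 2.87 among wild-type libraries. Differences were widespread. Of 13558 genes tested, 4013 were higher and 3712 lower in Git2-knockout, 57.0% in all, by edgeR's quasi-likelihood test at a Benjamini-Hochberg adjusted p below 0.05. Fold changes are log2 values of Git2-knockout over wild-type.

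Of the 10 Notch and Atoh1 genes only Hes1 passed the test, and it was higher in Git2-knockout. The other 9, the 4 receptors, the 4 ligands and Atoh1, did not pass, in a comparison in which 57.0% of all tested genes did, 29.6% upward and 27.4% downward. Their log2 fold changes ran from -0.20 for Atoh1 to 0.36 for Notch3. The median over the 10 was -0.03, against 0.02 over all tested genes. The groups' CPM values did not overlap for Hes1 and Atoh1, 2 of 10 genes, against 62.9% of all tested genes. In TPM (length-corrected) they did not overlap for Hes1 and Dll1, again 2 of 10, against 62.6% of all tested genes. In bulk RNA, fewer cells of a type and less RNA per cell cannot be told apart.

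**Figure D1:**
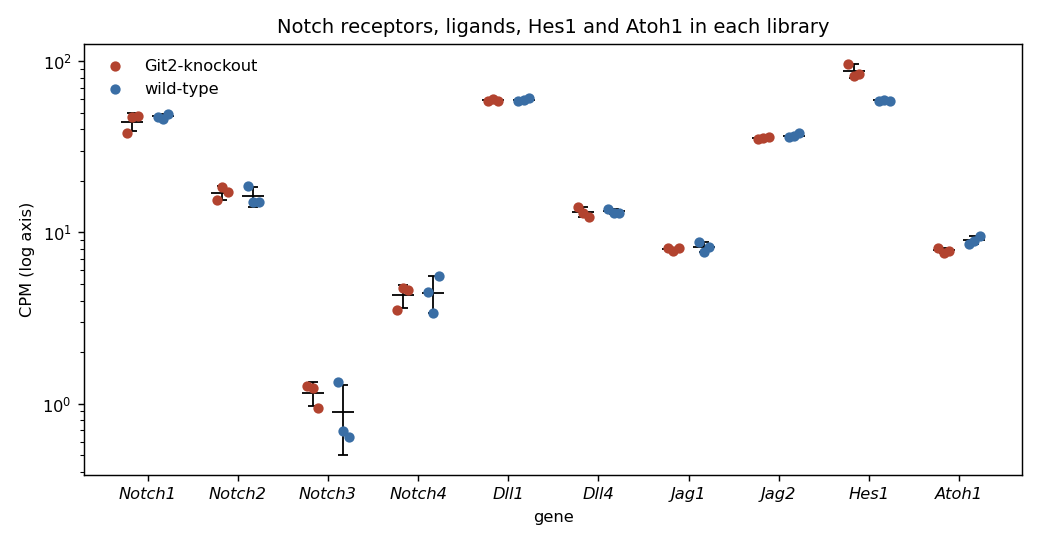
CPM of each of the 10 genes (log axis) in the 3 Git2-knockout libraries (red, left) and the 3 wild-type libraries (blue, right), with group mean and SD as black bars. Hes1 stands apart with 82.3 to 96.8 CPM in Git2-knockout and 58.8 to 59.3 CPM in wild-type, while the points of the other genes lie close together or overlap.

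Hes1 encodes a basic helix-loop-helix repressor and is the best known Notch target of the crypt. Hes1 had 96.8, 82.3 and 84.2 CPM in Git2-knockout and 58.9, 59.3 and 58.8 CPM in wild-type. All Git2-knockout values lay above all wild-type values, and Git2-knockout replicate 1 was the highest. Without that library the log2 fold change of Hes1 was 0.47 (edgeR adjusted p = 1.79e-10). The group means were 87.8 ± 7.88 CPM in Git2-knockout and 59.0 ± 0.29 CPM in wild-type (SD, n = 3 each). The log2 fold change was 0.57 (SE 0.06, edgeR, Benjamini-Hochberg adjusted p = 6.32e-07), which places Hes1 at 149% of wild-type with a 95% interval of 136% to 162%. Per length it was the most abundant of the 10 genes, at 154, 137 and 139 TPM in Git2-knockout and 87.4, 87.3 and 85.3 TPM in wild-type. Of all tested genes 17.1% were called with a log2 fold change of at least 0.5 in either direction, so a difference of this size was not rare in these libraries.

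Atoh1 encodes the helix-loop-helix activator that starts secretory differentiation. Its values were 8.13, 7.62 and 7.77 CPM in Git2-knockout and 8.61, 8.87 and 9.58 CPM in wild-type, so that every Git2-knockout library lay below every wild-type library by a small margin. The log2 fold change was -0.20 (SE 0.10, edgeR, Benjamini-Hochberg adjusted p = 0.0874), and the 95% interval for Atoh1 reached from 75.3% to 100.3% of wild-type. A decrease of up to about that lower bound is therefore compatible with these counts, and so is no decrease. Without Git2-knockout replicate 1 the adjusted p was 0.0495 (log2 fold change -0.25). In TPM the groups overlapped, at 8.62, 8.49 and 8.55 in Git2-knockout and 8.49, 8.65 and 9.28 in wild-type. On the log2(TPM + 1) scale Atoh1 stood at -0.04 (limma-trend, adjusted p = 0.696), where the median of all tested genes stood at 0.14. With the length trend removed, Atoh1 stood at -0.12 (edgeR adjusted p = 0.330). With length and GC trends removed it stood at -0.03 (edgeR adjusted p = 0.857).

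Set against each other within a library, Hes1 exceeded Atoh1 by 17.8, 16.2 and 16.3 times in TPM in the Git2-knockout libraries and by 10.3, 10.1 and 9.19 times in the wild-type libraries. The ratio averaged 16.7 ± 0.946 in Git2-knockout and 9.86 ± 0.585 in wild-type (SD, n = 3 each). Atoh1 TPM overlapped between the groups and Hes1 TPM did not. The genes whose CPM profile over the 6 libraries was nearest to that of Hes1 were Tmem30a, Ccng1 and Rap2c, at root mean square distances of 0.02 on the log2 scale after each gene was centred on its own mean. Of 9769 genes compared, 380 lay within 0.1 of Hes1. For Atoh1 the nearest were Ptpn6, Sin3b and Slc39a3, at distances of 0.01 to 0.02, and 2677 genes lay within 0.1.

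Windows of 300 bases around the annotated start (250 before and 50 after) were available from RefSeq (GRCm38.p6) for 9 of the 10 genes, in 10 windows because Dll1 has 2 starts. Hes1 had none in that table. These were searched on both strands for TGGGAA, the core letters bound by RBPJ, for CACNAG, the N-box letters bound by HES repressors, and for CAGCTG, an E-box of the kind bound by ATOH1. TGGGAA was found in 0 of the 10 windows and in 25.6% of all 32851 windows of that length. CACNAG was found in windows of 6 genes (Notch1, Notch2, Notch3, Dll1, Dll4 and Atoh1) and in 42.5% of all windows. CAGCTG was found at Jag1 and Dll1 and in 16.3% of all windows. A match is a description of letters, not a bound site, and the lack of one says only that these letters are not in this window. The windows of Atoh1 and of the 2 Delta ligands are shown because these genes form the arm that HES1 is known to hold down. Of the Dll1 windows the one with matches is shown, and the other held 0 of the 3 motifs. Capitals mark matches to CACNAG or CAGCTG, and CTGGTG is CACCAG read on the other strand. The Atoh1 match begins 23 bases after the start, the Dll4 match 75 bases before it, and in the Dll1 window the E-box begins 132 bases before and the N-box 13 bases after the start. The Atoh1 window lies at chr6:64728875-64729174 (plus strand), that of Dll1 at chr17:15376883-15377182 (minus strand) and that of Dll4 at chr2:119325534-119325833 (plus strand).
Atoh1: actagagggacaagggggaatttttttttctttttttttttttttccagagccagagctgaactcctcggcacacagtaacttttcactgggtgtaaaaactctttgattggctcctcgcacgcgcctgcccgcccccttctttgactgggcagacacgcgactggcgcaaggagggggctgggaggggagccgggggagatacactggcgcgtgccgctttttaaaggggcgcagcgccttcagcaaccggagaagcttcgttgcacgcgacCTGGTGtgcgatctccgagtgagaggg
Dll1: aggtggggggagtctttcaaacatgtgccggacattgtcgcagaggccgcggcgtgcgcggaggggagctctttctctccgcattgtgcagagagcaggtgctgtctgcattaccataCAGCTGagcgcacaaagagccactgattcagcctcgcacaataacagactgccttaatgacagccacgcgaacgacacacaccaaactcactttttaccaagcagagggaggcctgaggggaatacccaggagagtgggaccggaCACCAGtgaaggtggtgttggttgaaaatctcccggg
Dll4: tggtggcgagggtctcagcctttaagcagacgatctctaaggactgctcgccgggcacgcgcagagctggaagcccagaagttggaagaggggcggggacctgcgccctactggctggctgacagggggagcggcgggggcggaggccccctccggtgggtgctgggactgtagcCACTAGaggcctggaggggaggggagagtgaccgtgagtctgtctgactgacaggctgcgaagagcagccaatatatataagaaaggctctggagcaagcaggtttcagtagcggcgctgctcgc

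The ligands did not pass the test, and for the abundant ones the interval was narrow. Dll1, the main Delta ligand of secretory progenitors, had 58.3, 59.9 and 58.6 CPM in Git2-knockout and 58.3, 59.1 and 61.1 CPM in wild-type. These ranges overlapped almost fully, with a log2 fold change of -0.01 (SE 0.05, edgeR adjusted p = 0.834), and the 95% interval for Dll1 ran from 92.3% to 106% of wild-type. Jag2, a Serrate-type ligand, had 35.1, 35.5 and 36.2 CPM in Git2-knockout and 35.9, 36.5 and 37.9 CPM in wild-type (log2 fold change -0.05, SE 0.05, edgeR adjusted p = 0.471). Dll4, which acts together with Dll1 in the crypt and also marks growing vessels, had 14.1, 13.1 and 12.3 CPM in Git2-knockout and 13.8, 13.0 and 13.0 CPM in wild-type (-0.01, SE 0.08, edgeR adjusted p = 0.909). Its groups overlapped too, and its 95% interval ran from 87.6% to 112% of wild-type. Jag1 was the least abundant ligand, at 8.07, 7.79 and 8.07 CPM in Git2-knockout and 8.77, 7.64 and 8.25 CPM in wild-type (-0.04, SE 0.10, edgeR adjusted p = 0.736).

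Per length, the ligands together summed to 67.1 ± 2.03 TPM in Git2-knockout and 61.1 ± 0.736 TPM in wild-type (SD, n = 3 each), and their mix was alike in the 2 groups. Dll1 made up 56.5% to 57.3% of the ligand sum in Git2-knockout and 55.7% to 56.6% in wild-type. Jag2 followed with 24.5% to 26.4% in Git2-knockout and 25.5% to 26.3% in wild-type. On the TPM scale alone Dll1 was called higher, at 36.6, 39.5 and 38.2 TPM in Git2-knockout and 34.2, 33.8 and 34.8 TPM in wild-type (limma-trend on log2(TPM + 1), difference 0.15, adjusted p = 0.0278). That difference stood beside a median of 0.14 over all tested genes on the same scale, on which 2 of the 10 genes (Hes1 and Dll1) and 56.3% of all tested genes were called, 42.4% of all upward.

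The receptors did not pass the test either. Notch1, the main receptor of crypt progenitors, had 38.1, 47.3 and 47.8 CPM in Git2-knockout and 47.4, 46.2 and 49.0 CPM in wild-type. Git2-knockout replicate 1 was the lowest of the 6 and the other two Git2-knockout libraries lay among the wild-type values (log2 fold change -0.10, SE 0.07, edgeR adjusted p = 0.272). Without that library the log2 fold change of Notch1 was -0.03 (edgeR adjusted p = 0.673). Notch2, which works beside Notch1 in the crypt, had 15.5, 18.5 and 17.3 CPM in Git2-knockout and 18.6, 15.0 and 15.1 CPM in wild-type (0.07, SE 0.10, edgeR adjusted p = 0.531). The spread within each group of Notch2 was wider than the gap between the means. Notch1 made up 64.9% to 67.2% of the summed receptor TPM in Git2-knockout and 65.6% to 70.7% in wild-type, and the sum was 16.2 ± 2.18 TPM in Git2-knockout and 14.9 ± 0.831 TPM in wild-type (SD, n = 3 each).

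Notch4 and Notch3 were low, and their errors were wide. Notch4 had 3.52, 4.75 and 4.59 CPM in Git2-knockout and 4.46, 3.36 and 5.54 CPM in wild-type, with overlap of the groups (log2 fold change -0.05, SE 0.18, edgeR adjusted p = 0.813). Notch3 had 1.27, 1.23 and 0.942 CPM in Git2-knockout and 1.34, 0.694 and 0.639 CPM in wild-type, from 11.9 to 25 estimated reads per library. Its 95% interval ran from 81.5% to 203% of wild-type (log2 fold change 0.36, SE 0.31, edgeR adjusted p = 0.336). A difference of a size like that of Hes1 was thus neither shown nor excluded for Notch3. Without wild-type replicate 1, the library with 25 reads, the log2 fold change of Notch3 was 0.78 (edgeR adjusted p = 0.0557). The vessel genes that Notch4, Dll4 and Notch3 are known to accompany were higher in the same Git2-knockout libraries. Of 15 endothelial markers 14 were tested and 13 rose (92.9%, beside 29.6% of all tested genes), with a median of 1.14. The list summed to 51.4 to 58.8 TPM in Git2-knockout and 23.0 to 23.4 TPM in wild-type. Of 11 mural cell markers (pericytes and smooth muscle) 9 were tested and 8 rose (88.9%), with a median of 1.48. The mural list summed to 21.0 to 24.2 TPM in Git2-knockout and 7.35 to 8.03 TPM in wild-type. Tek, Cldn5, Sox17 and Erg of the endothelial list and Cspg4, Myh11, Des, Abcc9, Kcnj8 and Cnn1 of the mural list averaged below 1 TPM, with none at 0 in all libraries. The part of these cells in the levels of Notch3, Notch4 and Dll4 was not tested.

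Across the 10 genes the order by TPM was Hes1, Dll1, Jag2, Notch1, Atoh1, Dll4, Notch2, Jag1, Notch4 and Notch3. Over the 6 libraries, Hes1 (85.3 to 154 TPM), Dll1 (33.8 to 39.5 TPM) and Jag2 (15.7 to 17.8 TPM) did not overlap with the gene after them. The ranges of Notch1 (8.88 to 11.6 TPM), Atoh1 (8.49 to 9.28 TPM) and Dll4 (7.66 to 9.12 TPM) overlapped with their neighbours, and so did those of Notch2 (2.89 to 4.08 TPM) and Jag1 (2.84 to 3.31 TPM). Notch4 (1.04 to 1.70 TPM) and Notch3 (0.16 to 0.35 TPM) were below all of these.

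Fold changes in this comparison went with transcript length, and the receptor transcripts are long. Of 284 tested genes of 9 kb or more, 72.5% rose and 0.704% fell, with a median of 0.41 and quartiles of 0.21 and 0.58. Notch1 (9.44 kb, -0.10) and Notch2 (10.5 kb, 0.07) both lay below the lower quartile of that class. Notch4 (6.52 kb, -0.05) lay below the lower quartile of 0.09 of the class of 6 to 9 kb. Jag1 (5.48 kb, -0.04) and Jag2 (4.72 kb, -0.05) lay below that of -0.02 of the class of 4 to 6 kb. Dll1 (3.50 kb, -0.01) and Dll4 (3.40 kb, -0.01) lay between the quartiles of -0.13 and 0.29 of the class of 3 to 4 kb. At the short end, of 1357 genes of 1 to 1.5 kb, 8.25% rose and 49.3% fell, with a median of -0.19. Hes1 (1.38 kb, 0.57) lay far above the upper quartile of -0.02 there, and Atoh1 (2.07 kb, -0.20) lay between the quartiles of -0.22 and 0.16 of the class of 2 to 3 kb. The libraries differed in this respect within a group as well. Genes of 9 kb or more deviated from their mean by a median of 0.03, 0.31 and 0.25 in Git2-knockout replicates 1, 2 and 3, and by -0.17, -0.19 and -0.24 in the wild-type replicates, and the low Notch1 value of Git2-knockout replicate 1 stands beside the first of these. The part of length in the member values was not tested beyond the refits given next.

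**Figure D2:**
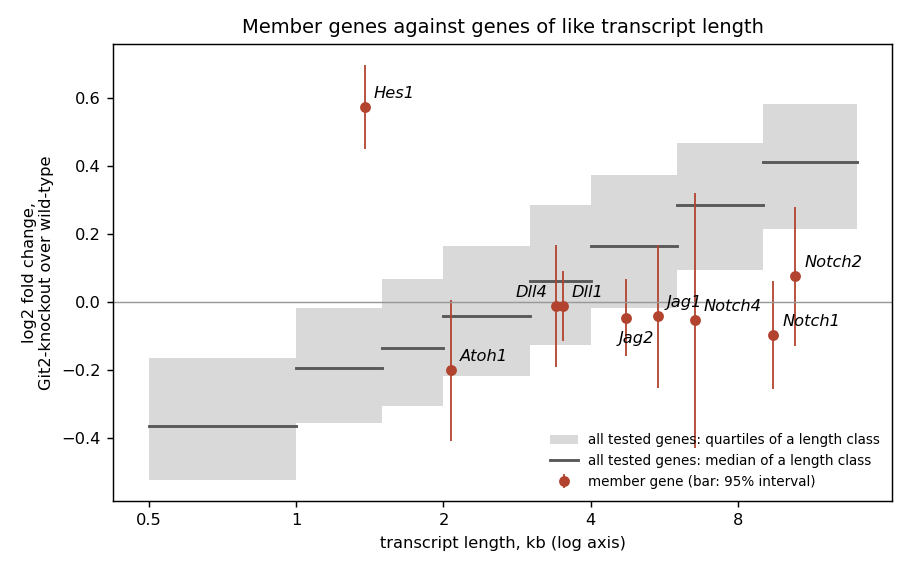
Log2 fold change against transcript length (log axis) for the 9 member genes with a length (red, bars are 95% intervals), over the median (dark line) and quartiles (grey) of all tested genes in 8 length classes, of which the first and last are open-ended. Hes1 lies above the quartiles of its length class, and Notch1, Notch2, Notch4, Jag1 and Jag2 lie below those of theirs. Dll1, Dll4 and Atoh1 lie between the quartiles.

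With the length trend removed by a smooth curve per library, Hes1 stood at 0.76 (edgeR adjusted p = 1.54e-11) and 4 of the other genes were called lower in Git2-knockout. That makes 5 of 10 called, beside 53.3% of all tested genes in the same fit (25.7% of all tested were lower). These were Notch1 (-0.45, adjusted p = 2.50e-07), Notch2 (-0.30, adjusted p = 0.00372), Jag2 (-0.21, adjusted p = 0.00195) and Jag1 (-0.24, adjusted p = 0.0486). With the GC trend removed as well, Hes1 stood at 0.79 and Notch1 (-0.30), Notch2 (-0.20, adjusted p = 0.0482) and Jag1 (-0.26, adjusted p = 0.0408) were called lower, while Jag2 stood at 0.00. That makes 4 of 10, beside 42.7% of all tested genes in that fit (21.1% of all tested were lower). Notch3 had too low an FPKM for a length, so only the GC trend was removed from it. Hes1 thus passed the test upward in all 18 alternative settings, with log2 fold changes of 0.47 to 0.79, whereas whether Notch1, Notch2, Jag1 and Jag2 passed depended on this choice.

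**Figure D3:**
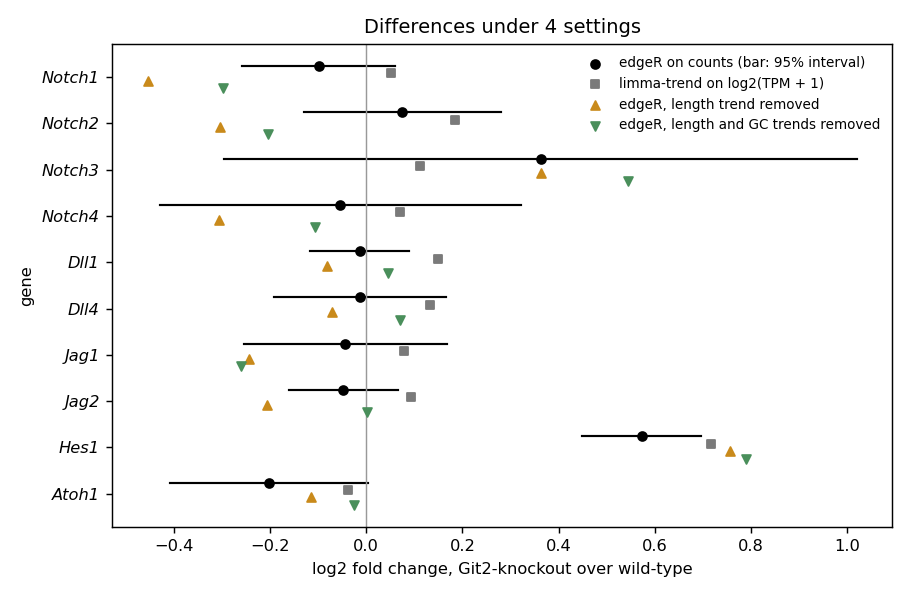
Log2 fold change of the 10 genes in the edgeR fit on counts (black, bar is the 95% interval), on log2(TPM + 1) (grey squares), with the length trend removed (orange triangles) and with length and GC trends removed (green triangles). Hes1 stays between 0.57 and 0.79 in these 4 settings, and Notch1 and Notch2 lie on opposite sides of 0 in different settings.

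Genes that cut and glycosylate the receptors differed in both directions. Among 15 such genes there were 4 upward and 6 downward calls (66.7%, beside 57.0% of all tested genes), and the median was 0.06. Adam10, the protease that makes the first cut after ligand binding, had 146, 143 and 146 CPM in Git2-knockout and 113, 108 and 107 CPM in wild-type (log2 fold change 0.41, SE 0.04, edgeR adjusted p = 7.24e-07), and stood at 0.03 with length and GC trends removed. The γ-secretase subunits Aph1b (0.41) and Aph1c (0.38), near-identical copies whose reads can be shared, rose and stood at 0.07 and 0.04 with both trends removed. Nicastrin (Ncstn, 0.06), a further subunit and the most abundant gene of the list, did not pass the test. It was called upward on the TPM scale at 0.22, where the median of all tested genes was 0.14. The fringe glycosyltransferases Lfng (-0.33) and Rfng (-0.34), which tune the choice of ligand and are named here after their values were seen, fell, and lost the call with length and GC trends removed.

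Of 19 tested regulators of ligands and receptors, 7 rose and 4 fell (57.9%), with a median of 0.07. Mib1, the ubiquitin ligase that lets ligands be pulled into the sending cell, had 98.9, 98.8 and 102 CPM in Git2-knockout and 66.4, 66.0 and 62.7 CPM in wild-type (log2 fold change 0.62, SE 0.05, edgeR adjusted p = 2.29e-08). Its transcript is also long (8.97 kb), and with length and GC trends removed Mib1 stood at 0.09 (adjusted p = 0.0818). Its relative Mib2 (-0.29) and the Notch inhibitor Numb (-0.24), both named after their values were seen, fell, and neither was called on the TPM scale. Epn1, an epsin that helps ligand endocytosis, fell by 0.45 on the log2 scale, to 327 ± 9.06 CPM in Git2-knockout against 448 ± 2.38 CPM in wild-type (SD, n = 3 each). The ubiquitin ligases Itch (0.39) and Nedd4 (0.35), which promote turnover of many membrane proteins, rose, but stood at -0.02 and 0.07 with both trends removed.

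Among 15 nuclear complex genes there were 6 upward and 4 downward calls (66.7%), and the list median was 0.15. Rbpj, the DNA-binding partner of the cleaved receptor, had 44.6, 48.5 and 46.2 CPM in Git2-knockout and 38.8, 36.8 and 35.6 CPM in wild-type (log2 fold change 0.32, SE 0.06, edgeR adjusted p = 1.29e-04), and stood at -0.06 with length and GC trends removed. The histone demethylase Kdm5a, a corepressor at silent Notch targets, stood at 0.52, and at -0.06 with both trends removed. The acetyltransferase Kat2b (0.33) rose. The abundant corepressors Ctbp1 (-0.12) and Hdac1 (-0.16) fell. On the TPM scale they stood at 0.04 and 0.00, where the median of all tested genes was 0.14.

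Known Notch targets and HES relatives, taken as 1 list, differed in both directions. Of 15 such genes 11 were tested, 2 rose (Hes1 itself and Hey1) and 4 fell (54.5%, beside 57.0% of all tested genes), with a median of -0.05. Hes6, 1 of the 4, counteracts HES1 and appears in secretory progenitors, and it is listed here as a HES relative, not as a gene that Notch turns on. It fell to 43.8 ± 1.94 CPM in Git2-knockout, against 63.2 ± 4.51 CPM in wild-type (SD, n = 3 each, log2 fold change -0.53, SE 0.06, edgeR adjusted p = 1.78e-06). Myc, which drives growth of progenitors, fell by 0.55 on the log2 scale, and the cyclin Ccnd1, named after its values were seen, fell by 0.42. Nrarp, a feedback inhibitor of the receptor complex, fell by 0.21, though it was not called on the TPM scale, with both trends removed or without wild-type replicate 2 (adjusted p = 0.0579). Hey1, a target best known from vessels, rose by 0.83 at 1.21 ± 0.385 CPM in Git2-knockout and 0.677 ± 0.11 CPM in wild-type (SD, n = 3 each). Its groups overlapped, and the call was lost with DESeq2 and without any of 4 of the 6 libraries (Git2-knockout replicates 1 and 2 and wild-type replicates 1 and 3). Nrarp and Hey1 were also named after their values were seen. Olfm4, a stem cell gene that depends on Notch, had 1199 ± 18.1 CPM in Git2-knockout and 1238 ± 23.1 CPM in wild-type and did not pass the test (-0.05, edgeR adjusted p = 0.275). Olfm4 was called upward on the TPM scale at 0.11, where the median of all tested genes was 0.14. It was called downward without Git2-knockout replicate 1 (-0.08) and with both trends removed (-0.27). Hes5, Hey2, Heyl and Il2ra were too low to test.

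**Figure D4:**
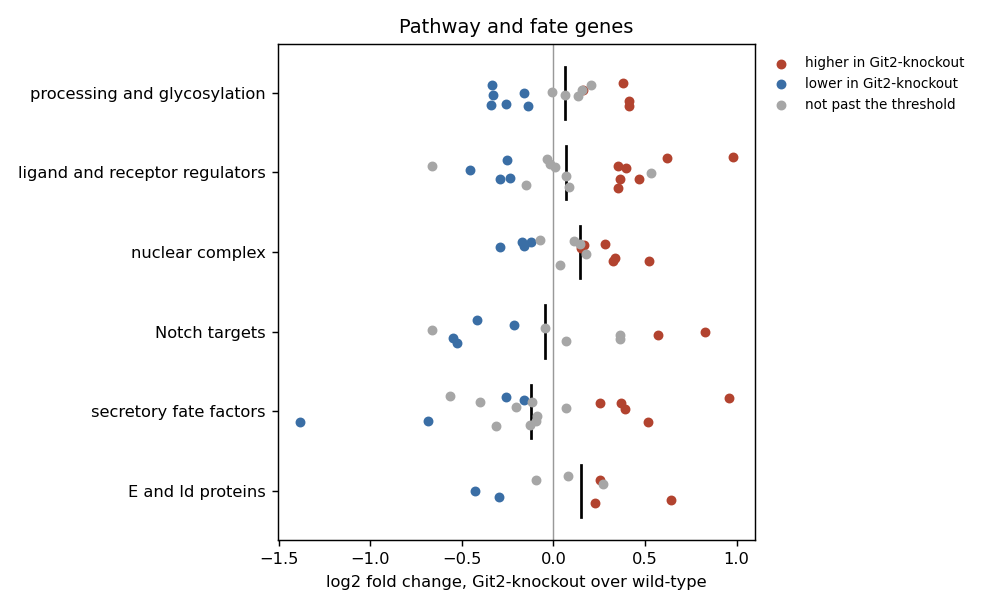
Log2 fold changes of the tested genes of 6 pathway and fate lists, coloured by whether they were called higher (red), lower (blue) or not called (grey) in Git2-knockout, with the list median as a black line. Called genes lie on both sides of 0 in every list, and the medians run from -0.12 to 0.15.

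Factors of secretory fate, namely Atoh1 itself and others that act beside or below it, moved in both directions. Of 20 factors 18 were tested, 5 rose and 4 fell, so that 9 of 18 were called beside 57.0% of all tested genes, with a median of -0.12. Neurod1, an enteroendocrine factor, had 9.04, 8.09 and 7.71 CPM in Git2-knockout and 4.46, 4.06 and 4.26 CPM in wild-type (log2 fold change 0.96, SE 0.12, edgeR adjusted p = 3.50e-06). Sox4 (0.52), a factor of secretory progenitors, Foxa1 (0.37), a factor of goblet and enteroendocrine cells, and Klf4 (0.25), a goblet cell factor, rose. Cdx2 (-0.26), which sets intestinal identity, fell and stood at -0.01 with length and GC trends removed.

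Further fate factors were named after their values were seen. Spdef, a factor of goblet and Paneth cells downstream of Atoh1, had 14.5 ± 1.22 CPM in Git2-knockout and 15.7 ± 0.827 CPM in wild-type (SD, n = 3 each) and did not pass the test (-0.12, edgeR adjusted p = 0.253). Gfi1, an Atoh1 target that keeps secretory precursors from the endocrine fate, stood at -0.56 (adjusted p = 0.0647, and 0.0271 without wild-type replicate 1), and Neurog3, the factor that starts the endocrine fate, at -0.40 (adjusted p = 0.0689, and 0.0224 without Git2-knockout replicate 1). Foxa3 fell by 0.69 on the log2 scale. Insm1 (0.39), which acts after Neurog3, rose, a call lost with DESeq2 and without wild-type replicate 2 or 3. The tuft cell factor Pou2f3 fell by 1.38 on the log2 scale, at 0.32 ± 0.275 CPM in Git2-knockout and 0.837 ± 0.293 CPM in wild-type, a call lost with DESeq2 and without Git2-knockout replicate 2 or 3 or wild-type replicate 2.

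ATOH1 binds DNA with E proteins, which Id proteins sequester. Among 8 such genes there were 3 upward and 2 downward calls (62.5%), and the median was 0.15. The E protein gene Tcf4 (0.64, and 0.07 with both trends removed) rose and its relative Tcf3 (-0.30) fell. Id2 (0.23), the most abundant of the Id genes, rose. Id3 fell by 0.43 on the log2 scale and stood at 0.00 with both trends removed. Id1 stood at -0.09 and did not pass the test, but was called upward with the length trend removed, at 0.20.

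Markers of the lineages that Notch and Atoh1 divide between them moved differently from one another. Of all tested genes 57.0% were called, 29.6% upward and 27.4% downward. Of 14 goblet markers 9 fell and 1 rose (71.4%), with a median of -0.23. The goblet median was -0.13 with the length trend removed, -0.14 with both trends removed and -0.07 on the TPM scale. Over all tested genes these medians were 0.02, 0.01 and 0.14. Clca1, a secreted mucus protein, fell by 0.66 on the log2 scale. The mucin Muc2, the main goblet product, had 542 ± 16.95 CPM in Git2-knockout and 547 ± 30.2 CPM in wild-type (SD, n = 3 each, -0.01, edgeR adjusted p = 0.809). Muc2 was called downward with the length trend removed (-0.45) and upward on the TPM scale (0.15, beside a median of 0.14 over all tested genes). Guca2a (-0.47) and the trefoil peptide Tff3 (-0.26), short transcripts, fell, but stood at 0.11 and 0.36 with length and GC trends removed. Zg16, a lectin, fell by 3.41 on the log2 scale. Among 9 Paneth markers there were 7 downward calls and 1 upward (88.9%), the median being -0.25. With the length trend removed 0 fell and 3 rose, beside 25.7% and 27.5% of all tested genes in that fit. Defa21 (-0.50), Defa22 (-0.43) and Defa24 (-0.25), defensins with near-identical copies, then stood at 0.03, 0.10 and 0.28. Lyz1, Paneth cell lysozyme, fell by 0.24 on the log2 scale and was not called on the TPM scale or with either trend correction, and Mptx2 (1.27) rose.

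Of 15 enteroendocrine markers 8 rose and 3 fell (73.3%, beside 57.0% of all tested genes), with a median of 0.34. With the length trend removed 11 rose and 0 fell, beside 27.5% and 25.7% of all tested genes in that fit. Nts, the peptide neurotensin, had 17.2, 15.2 and 15.8 CPM in Git2-knockout and 7.32, 7.64 and 6.60 CPM in wild-type (log2 fold change 1.16, SE 0.09, edgeR adjusted p = 4.88e-08). The granule protein Scg2 (0.92) and proglucagon (Gcg, 0.43) rose too. Chgb (0.05) and somatostatin (Sst, -0.04), the most abundant of the list, did not pass the test. They were called upward on the TPM scale at 0.21 and 0.12, where the median of all tested genes was 0.14. Of 8 tuft markers in the table only 4 could be tested, and Ptgs1 (1.08) was the 1 that rose (25%). In the stem cell list 3 of 10 genes rose and 5 fell (80%). Lgr5 (0.48) and the water channel Aqp4 (0.51) were upward and Ascl2 (-0.86), a factor of crypt base stem cells, downward. Lgr5 (4.66 kb) and Aqp4 (5.11 kb) belong to the length class of 4 to 6 kb, in which 48.9% of genes rose. Ascl2 (1.56 kb) belongs to that of 1.5 to 2 kb, in which 42.6% fell. Of 12 absorptive enterocyte markers 10 fell and 1 rose (91.7%), with a median of -0.43. Beside all these lists stand the higher endothelial and mural sums given above. Fibroblast markers, of which 10 of 11 tested rose (90.9%) and 0 fell, summed to 103 to 115 TPM in Git2-knockout and 35.6 to 37.8 TPM in wild-type. Of 11 macrophage markers 2 rose and 1 fell (27.3%, below the 57.0% of all tested genes). Of 5 tested T cell markers 1 rose and 1 fell (40%), and all 6 tested B cell markers fell. Their part in the lineage counts was not tested.

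**Figure D5:**
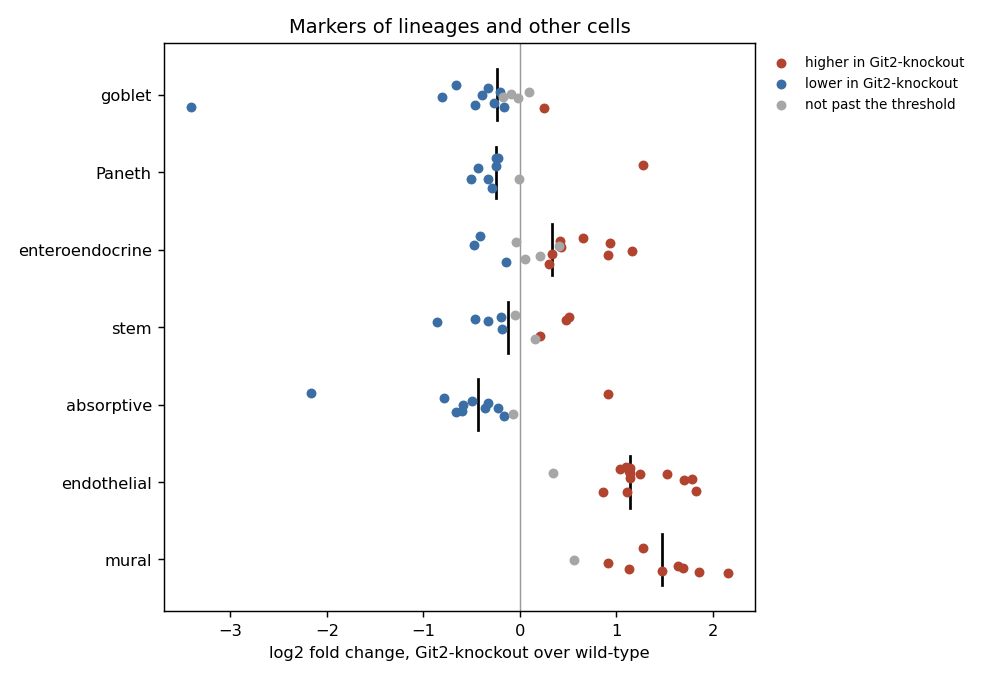
Log2 fold changes of the tested markers of 7 cell types, coloured by call as higher (red), lower (blue) or not called (grey) in Git2-knockout, with list medians as black lines. Medians run from -0.43 for absorptive markers and -0.23 for goblet markers to 0.34 for enteroendocrine and 1.48 for mural markers.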

How the data were processed

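Poly(A) RNA was captured on oligo(dT), fragmented and made into cDNA, per the labels' protocols. HISAT, Bowtie2, RSEM and GRCm39 are named without versions, per the submitters' processing notes, and neither the annotation nor the strand setting is stated there. The authors deposited estimated counts, FPKM and TPM per library, per the file headers. TPM were used as deposited to compare levels between genes, and FPKM only to derive transcript length where FPKM was at least 0.5. The authors' group averages were not used.

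Estimated counts were rounded and compared in R 4.3.3 with edgeR 4.0.16 (filterByExpr, TMM, robust quasi-likelihood test, 2-sided, no covariates, all 6 libraries). Benjamini-Hochberg adjustment ran over 13558 genes at a threshold of 0.05, SE is the log2 fold change over the square root of F, and CPM is TMM-scaled. Counting error and the 3 libraries per group limit the precision. Replicates differed by more than counting noise (chi-square per degree of freedom 1.60 to 7.16 within groups, highest for pairs with Git2-knockout replicate 1). Same-numbered libraries did not deviate together, as given in the closing section. Alternatives were RLE, upper-quartile and total scaling, DESeq2 1.42.0, limma 3.58.1 (voom, and trend on log2(TPM + 1)), no filter, 5 CPM in 3 libraries, a non-robust fit, the replicate number as a block, each library left out, and removal of length or length and GC trends by loess (span 0.5). Length covered 90.7% and GC (GENCODE transcripts, GRCm38) 97.3% of tested genes. Steps were tested on simulated data. Members, lists and alternatives were chosen with earlier results of these data known. Named genes are all members, up to 3 called genes of smallest p and up to 2 of highest TPM per list, the 3 nearest profiles to Hes1 and to Atoh1, and others marked as chosen after their values were seen. Not every gene of that rule is printed, and 1 is not reported here.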

Additional observations from a re-analysis of the deposited data

How the results depend on the processing

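Hes1 was called upward under all 18 alternatives (0.47 to 0.79). Leaving out 1 library at a time gave 1 to 2 called members (2 without Git2-knockout replicate 1, where 60.4% of all tested genes were called) and put Atoh1 at -0.25 to -0.16. Atoh1 stood at -0.12 with the length trend removed and at -0.03 with length and GC trends removed. On log2(TPM + 1), 2 members were called, beside 56.3% of all tested genes, and the median of all tested genes was 0.14. With the length trend removed 5 were called (Notch1 -0.45, Notch2 -0.30, Jag1 -0.24, Jag2 -0.21), beside 53.3% of all tested genes, and with length and GC trends removed 4 (Notch1 -0.30, Notch2 -0.20, Jag1 -0.26), beside 42.7%. Of 178 member values, 169 stayed on their side of the threshold and 159 kept their sign. Of the 19 that turned sign, 16 were not called. The called ones were Notch2 with either trend correction and Dll1 on log2(TPM + 1). Besides Notch2, the values that turned sign lay on log2(TPM + 1) at 0.15 (Dll1), 0.13 (Dll4), 0.0511 (Notch1), 0.0710 (Notch4), 0.0778 (Jag1) and 0.0942 (Jag2). They lay at 0.0225 (Dll1) and 0.0229 (Dll4) with library totals, and at 0.0445 (Dll1), 0.0696 (Dll4) and 0.0010 (Jag2) with both trends removed. With 1 library left out, Notch4 ranged from -0.22 to 0.13, Dll1 from -0.0369 to 0.0038, Dll4 from -0.0897 to 0.0189 and Jag1 from -0.0956 to 0.0037. The count over all genes ranged from 5787 to 8343, and of called genes 51.9% were higher, against 75.3% on log2(TPM + 1). In the 6 pathway and fate lists 51 calls (52.9% higher, 78.7% on log2(TPM + 1)) ranged from 34 to 58. Of 1604 values of 90 other named genes 39 turned sign. On log2(TPM + 1) these were Ctbp1 (0.0435), Hdac1 (0.0024), Olfm4 (0.11), Id1 (0.0710), Sst (0.12), Spdef (0.0190) and Muc2 (0.15). With the length trend removed they were Id1 (0.20), Tff3 (0.24), Sst (0.38), Defa21 (0.0312), Defa24 (0.28), Defa22 (0.0988), Ltc4s (0.0241), Slc12a2 (-0.0393) and Spdef (0.0210). With both removed they were Itch (-0.0248), Kdm5a (-0.0608), Rbpj (-0.0554), Ctbp1 (0.0705), Id1 (0.32), Guca2a (0.11), Tff3 (0.36), Sst (0.52), Defa21 (0.0650), Defa24 (0.30), Defa22 (0.14), Ltc4s (0.22), Slc12a2 (-0.20) and Spdef (0.20). Epcam, at 0.0080 in the reported fit, lay at -0.0052 with RLE, -0.0200 with upper-quartile scaling, -0.0139 with DESeq2 and -0.0017 without a filter, and Muc2 at 0.0218 with library totals. With 1 library left out, Sst ranged from -0.12 to 0.0051, Ltc4s from -0.84 to 0.0578, Epcam from -0.0475 to 0.0166 and Muc2 from -0.0475 to 0.0294. The cause was not tested. Same-numbered libraries did not deviate together (correlations 0.04, -0.001 and 0.05). With the replicate number as a block, 7441 genes, 49 list genes and 1 member were called, with Hes1 at 0.57 and Atoh1 at -0.20 (edgeR adjusted p = 0.119). Depth limits Notch3 and Notch4, which the filter of 5 CPM removed.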
